A study of Mus musculus with 6 samples.

Results

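The 32 genes described here encode proteins of the DNA replication fork and of the chromatin assembly that follows it. They were chosen by name, and each matched 1 row among the 53465 genes of the table. Their mRNA was measured in Nras(G12D)/MLL-AF9 cells, leukaemia cells of the mouse with an activating Nras allele and the fusion of MLL (Kmt2a) with AF9 (Mllt3). All 6 libraries came from these cells, grown in RPMI with serum and the cytokines SCF, IL-3 and IL-6. The OMP group received 100 µM 4'-O-methylpyridoxine, a vitamin B6 analog also known as ginkgotoxin, and the Vehicle group received PBS, each for 6 days. Each group had 3 libraries of poly(A)-selected RNA. The results come from this cell model only, both groups carry both alleles, and the labels do not say whether the libraries came from separate cultures, so p-values measure only how these libraries vary, and that variation may be technical. The comparison asks whether OMP changed the mRNA of the fork and assembly genes.

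As background, the replicative helicase unwinds DNA ahead of the fork, and it forms when Cdc45 and the GINS complex join the MCM ring at a licensed origin. Primase and polymerase alpha start each new strand, the RFC complex then loads the ring-shaped PCNA clamp, and polymerases epsilon and delta extend the leading and the lagging strand. FEN1 and DNA ligase I trim and join the Okazaki fragments of the lagging strand, RPA coats exposed single-stranded DNA, and CAF-1 places histones on the new duplexes. Many of these genes are known targets of the E2F transcription factors and are transcribed as cells pass from G1 into S phase.

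The deposited values are RPKM, that is reads per kb of gene length, scaled to the size of the library. Library totals recovered from them ran from 3737843 to 4247619 reads in Vehicle and from 3494986 to 3720117 in OMP. Libraries of one group varied little beyond counting noise (chi-square over its degrees of freedom, 1.18 to 1.57), and none was an exact repeat of another. The 8 myeloid progenitor markers ran in Vehicle from 1.72 ± 0.280 RPKM for the receptor gene Flt3 to 993 ± 23.2 RPKM for the granule protease gene Elane. Markers of other myeloid cells ranged widely in Vehicle. Those of neutrophils ran from 0.788 ± 0.277 RPKM for Ltf to 1372 ± 9.43 RPKM for S100a9. Those of monocytes and macrophages ran from 0.222 ± 0.146 RPKM for Cx3cr1 to 2619.5 ± 28.2 RPKM for Ly6c2. By contrast 4 of 5 T cell markers, among them Cd3e, had no read in any library. The labels call the source leukemic cells and the tissue blood.

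OMP-treated cells held less mRNA of nearly every replication fork and chromatin assembly gene. Of the 32 genes, 31 passed the filter of at least 1 RPKM in at least 3 libraries, which Fen1 did not. Among these 31 genes 30 fell and 0 rose (limma, Benjamini-Hochberg adjusted p under 0.05 over all 11020 genes tested), where 43% of all genes tested were called, 27.5% lower and 15.4% higher. The histone mRNA-binding gene Slbp was the 1 that missed the threshold. In each of the 31 genes every OMP library was below every Vehicle library, while groups were apart in 54.5% of all genes tested, lower in 34.6%. The median log2 fold change, here always on the log2(RPKM + 0.5) scale, was -0.60 over the 31 genes and -0.09 over all genes tested, and a median gene of the group was 1.52-fold lower. The fold changes ran from -1.37 for Gins3 to -0.15 for Slbp, and 23 of the 31 (74.2%) lay below -0.5, against 14.3% of all genes tested.

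**Figure D1:**
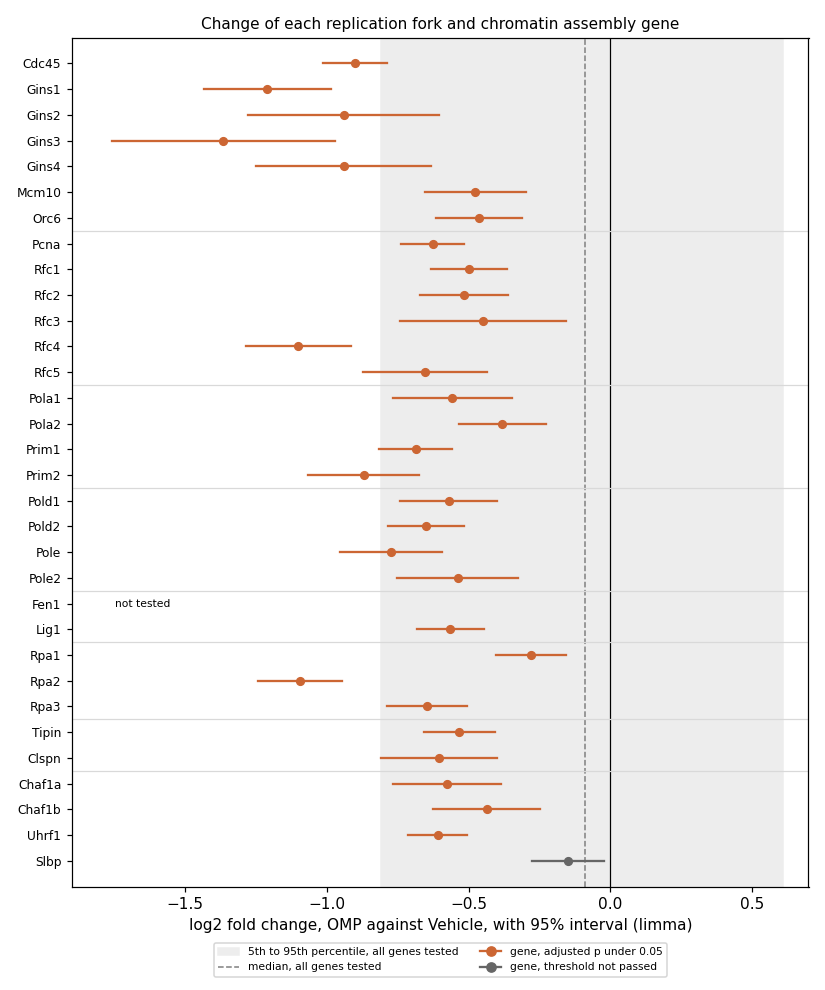
Log2 fold change of each gene, OMP against Vehicle, from limma, with its 95% interval; genes are ordered by role and separated by thin lines, and the grey band holds the 5th to 95th percentile of all genes tested. All 31 tested genes lie left of 0, 8 of them left of the 5th percentile (-0.81), and Fen1 was not tested.

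Summed over the 32 genes, the level was 1318, 1352 and 1316 RPKM in the Vehicle libraries and 843, 857 and 837 RPKM in the OMP libraries, or 36.4% lower by the means. The libraries within a group lay close together and the groups did not overlap. In bulk RNA a smaller number of cells in S phase and less mRNA in each such cell cannot be told apart. Scaling moved the balance of calls over all genes, while the count of falls in this group changed little. Of all called genes 35.9% were higher with the values as deposited, 51.4% with median-of-ratios scaling, 49.2% with quantile normalization and 23.8% with TPM rescaling, while 30, 29 and 31 of the fork and assembly genes fell under these 3 scalings and 0 rose. The size of the falls did move with scaling. The median log2 fold change of the group was -0.52, -0.50 and -0.70 under the 3 scalings, and that of all genes tested -0.005, -0.007 and -0.17. Spearman's rho between the level in Vehicle and the log2 fold change was -0.028 over the 31 genes, which share the same 6 libraries.

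Marker genes of myeloid maturation also changed in these libraries, where 27.5% of all genes tested fell and 15.4% rose. Of 13 neutrophil markers 12 rose and 0 fell, and their summed level was 2777 to 2883 RPKM in Vehicle and 9517 to 10030.1 RPKM in OMP. All 8 myeloid progenitor markers fell, from a sum of 2863 to 2932 to one of 1216 to 1331 RPKM. Flt3 passed the filter only because of its Vehicle libraries, and the neutrophil marker Ltf only because of its OMP libraries. Each could thus enter these counts almost only in the direction given. Of 8 monocyte and macrophage markers 6 were tested, 1 rose and 2 fell, with sums of 2701 to 2752 RPKM in Vehicle and 2591 to 2713 RPKM in OMP. Nearly all of the latter sums was Ly6c2, with 2619.5 ± 28.2 RPKM in Vehicle and 2521 ± 64.3 RPKM in OMP, so they say little about the other markers of that list. Most of the neutrophil sums was S100a8 and S100a9, and most of the progenitor sums Elane, Prtn3 and Ctsg. Of 7 mast cell and megakaryocyte markers 2 were tested and 1, Ms4a2, fell. Ms4a2 likewise passed the filter through its Vehicle libraries alone. Itga2b and Gp9 were too low to be tested, but every OMP library lay above every Vehicle library. With OMP the mean of Itga2b went from 0.333 ± 0.0908 to 0.810 ± 0.0562 RPKM, and that of Gp9 from 0.375 ± 0.157 to 0.945 ± 0.292 RPKM. Also untested were Cpa3, whose groups overlapped, and Fcer1a and Pf4, which had no read. None of the erythroid, B cell and T cell markers passed the filter, and the sum of each list stayed at or below 0.959 RPKM in every library. The part of these markers in the fall of the replication genes was not tested.

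The promoters were read for letters known from factors that act on replication genes. RefSeq windows on GRCm38.p6, from 250 bases before to 50 after a gene's start, were found by symbol for 25 of the 32 genes, and Gins1, Gins2, Gins4, Pole, Prim2, Rfc2 and Tipin were not matched. The letters TTTCCCGC, TTTGGCGC, TTTCGCGC or TTTGCCGC, forms of the E2F consensus, were present on either strand in 8 of the 25 genes (32%), namely Clspn, Gins3, Lig1, Pola1, Pold1, Pole2, Rfc3 and Uhrf1. The same letters were in 2.60% of all 27025 genes with a window, and in 5.05% of the genes with a window that were tested for expression. Without the first T, a form chosen after the first count was seen, the letters were in 16 of the 25 genes (64.0%) against 10.9% of all genes and 20.2% of those tested. The windows of the fork and assembly genes were richer in G and C, with a median of 63.0% against 52.7% over all windows, and the part of base composition in these shares was not tested.

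Promoters of 4 genes are shown because they hold the E2F-like form without the first T in a stretch of 180 bases. Each stretch lies before both the RefSeq and the GENCODE M21 start and holds no annotated exon. The stretch ends at the base before whichever start comes first, which is the RefSeq start for Chaf1a and the GENCODE start for Rpa2 and Uhrf1, and the starts coincide for Pola1. Each is written 5′ to 3′ on the gene's strand, for Rpa2 at chr4:132768152-132768331 (plus strand), Chaf1a at chr17:56040236-56040415 (plus), Uhrf1 at chr17:56303141-56303320 (plus) and Pola1 at chrX:93632156-93632335 (minus), on GRCm38. Capitals mark E2F-like letters on either strand, and CCAAT, which reads ATTGG on the other strand. The E2F-like letters marked are the form without the first T, chosen after the first count was seen. Only the stretch of Pola1 also holds an 8-letter match.
Rpa2: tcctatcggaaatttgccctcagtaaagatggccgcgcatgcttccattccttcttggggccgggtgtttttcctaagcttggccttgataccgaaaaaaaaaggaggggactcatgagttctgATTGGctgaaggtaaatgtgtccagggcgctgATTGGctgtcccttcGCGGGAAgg
Chaf1a: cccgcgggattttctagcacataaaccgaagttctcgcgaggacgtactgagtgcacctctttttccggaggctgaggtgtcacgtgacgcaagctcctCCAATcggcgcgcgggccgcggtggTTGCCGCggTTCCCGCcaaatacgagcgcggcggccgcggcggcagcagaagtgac
Uhrf1: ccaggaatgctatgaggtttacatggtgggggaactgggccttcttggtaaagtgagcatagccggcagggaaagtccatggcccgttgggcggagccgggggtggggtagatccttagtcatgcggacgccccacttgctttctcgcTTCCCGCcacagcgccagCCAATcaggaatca
Pola1: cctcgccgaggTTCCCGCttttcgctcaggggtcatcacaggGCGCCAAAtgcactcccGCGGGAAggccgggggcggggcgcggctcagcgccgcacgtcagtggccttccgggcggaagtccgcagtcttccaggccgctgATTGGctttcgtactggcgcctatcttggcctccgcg
Pola1 held 3 such matches, Chaf1a 2, and Rpa2 and Uhrf1 1 each, and CCAAT stood in all of these stretches. CCAAT was in 17 of the 25 genes (68.0%) against 41.1% of all genes, and TTTGAA, the CHR letters known from genes of G2 and mitosis, in 4 of 25 (16.0%) against 20.2%. Among the genes tested for expression CCAAT was in 43.7% and TTTGAA in 14.4%. In Prim1 and Rfc1 an E2F-like match overlapped a CCAAT match. Among the tested genes of the group that had a window, the median log2 fold change was -0.57 for the 8 with an 8-letter match. It was -0.60 for the 16 without one, and the 2 values lay close together. The 7 genes without a window are in neither median, and their log2 fold changes ran from -1.21 for Gins1 to -0.52 for Rfc2. A match is a description of the sequence and does not show binding.

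The helicase and origin genes had the lowest median of the roles. All 7 fell, with a median log2 fold change of -0.94. Gene positions are on GRCm38. Cdc45 (ENSMUSG00000000028, chromosome 16, 18780447 to 18811987), whose product couples the MCM ring to GINS, had 100.5, 111 and 105 RPKM in the Vehicle libraries and 57.5, 56.9 and 54.4 RPKM in the OMP libraries. The groups were far apart relative to their spread, and Cdc45 was 1.87-fold lower (log2 fold change -0.90 ± 0.05 SE, limma adjusted p = 5.28e-06). The 4 GINS genes, whose products form one ring-bound complex, were all lower by at least 1.92-fold. Gins1 had 28.1, 35.3 and 33.8 RPKM in the Vehicle libraries and 12.9, 15.02 and 13.1 RPKM in the OMP libraries (log2 fold change -1.21 ± 0.10 SE, limma adjusted p = 4.10e-05). Gins3 had 7.86, 6.60 and 5.98 RPKM in the Vehicle libraries and 2.499, 1.79 and 2.77 RPKM in the OMP libraries, and with 206 Vehicle and 64 OMP reads its fold change of -1.37 ± 0.17 SE was the least precise of the group (limma adjusted p = 0.000395). Gins2 and Gins4 fell from 7.96 ± 1.02 to 3.92 ± 0.672 RPKM and from 39.7 ± 6.81 to 20.4 ± 3.00 RPKM. Mcm10, a factor that helps activate the helicase, was 1.39-fold lower at 14.7 ± 1.34 RPKM, and Orc6, a subunit of the origin recognition complex, 1.38-fold lower at 33.2 ± 2.83 RPKM. The 95% intervals of Mcm10 (-0.66 to -0.30) and Orc6 (-0.61 to -0.31) did not reach that of Cdc45 (-1.01 to -0.79), while that of Gins2 (-1.28 to -0.60) overlapped both and that of Gins4 (-1.25 to -0.63) overlapped that of Mcm10.

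**Figure D2:**
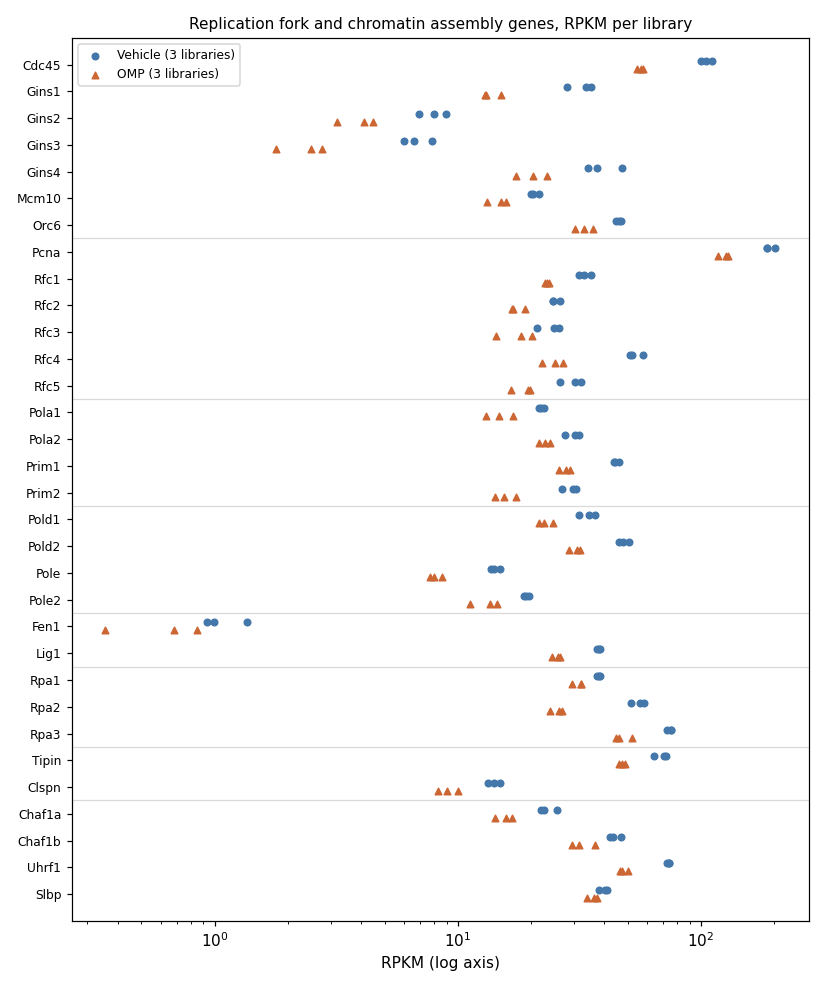
RPKM on a log axis for each gene in each of the 6 libraries, Vehicle as circles and OMP as triangles, ordered by role and separated by thin lines. Pcna and Cdc45 have the highest levels and Fen1 the lowest, and in every gene the 3 triangles lie left of the 3 circles.

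Pcna, the clamp, had the highest level per length of the group. Pcna (ENSMUSG00000027342, chromosome 2, 132249162 to 132253314) had 202, 187 and 188 RPKM in the Vehicle libraries and 126, 129 and 117 RPKM in the OMP libraries, with every OMP library below every Vehicle library, and it fell 1.54-fold (log2 fold change -0.63 ± 0.05 SE, limma adjusted p = 3.32e-05). A processed copy, Pcna-ps2, was listed with 39 Vehicle and 23 OMP reads against 3514 and 2029 for Pcna, and another, Pcna-ps1, with 0 reads. These counts hold only reads assigned to the copies. The part of reads that align to both Pcna and a copy was not tested. All 5 genes of the clamp loader fell too. Rfc4 (ENSMUSG00000022881, chromosome 16, 23113943 to 23127737) had 51.2, 52.2 and 57.6 RPKM in the Vehicle libraries and 22.1, 27.1 and 25.2 RPKM in the OMP libraries and was 2.14-fold lower (log2 fold change -1.10 ± 0.08 SE, limma adjusted p = 2.39e-05), the deepest fall among the loader genes. Rfc1, the large subunit, went from 33.2 ± 1.89 to 23.3 ± 0.460 RPKM, Rfc2 from 25.2 ± 0.939 to 17.5 ± 1.24 RPKM and Rfc5 from 29.5 ± 2.97 to 18.6 ± 1.83 RPKM. Rfc3 had the highest adjusted p of the 30 calls. It had 21.1, 24.9 and 26.1 RPKM in the Vehicle libraries and 14.3, 18.2 and 20.2 RPKM in the OMP libraries, with the highest OMP library just under the lowest Vehicle library (log2 fold change -0.45 ± 0.13 SE, limma adjusted p = 0.0212). Its adjusted p was 0.0587 without Vehicle replicate 2, 0.0684 without Vehicle replicate 3 and 0.0514 with quantile normalization.

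The primase and polymerase alpha genes, which start new strands, all fell. Prim2 (ENSMUSG00000026134, chromosome 1, 33453810 to 33669795), the large primase subunit, had 29.7, 30.7 and 26.7 RPKM in the Vehicle libraries and 14.2, 15.5 and 17.3 RPKM in the OMP libraries (log2 fold change -0.87 ± 0.09 SE, limma adjusted p = 0.000115). Prim1, the catalytic primase subunit, fell from 44.7 ± 1.11 to 27.6 ± 1.52 RPKM, or 1.61-fold. Pola1, the catalytic subunit of polymerase alpha, whose promoter holds the 3 E2F-like matches shown, had 21.97, 21.5 and 22.7 RPKM in the Vehicle libraries and 16.9, 13.1 and 14.7 RPKM in the OMP libraries and was 1.47-fold lower (limma adjusted p = 0.00159). Its partner Pola2 fell least of the 4, 1.30-fold, from 29.8 ± 1.91 to 22.8 ± 1.16 RPKM. All 4 were thus lower in every OMP library than in any Vehicle library, and the intervals of Prim2 (-1.07 to -0.67) and Pola2 (-0.53 to -0.23) did not overlap, while that of Pola1 (-0.77 to -0.35) overlapped both.

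The catalytic and second subunits of polymerases epsilon and delta all fell, with log2 fold changes from -0.78 to -0.54. Pole (ENSMUSG00000007080, chromosome 5, 110286306 to 110337474), the catalytic subunit of the leading-strand polymerase, had 13.7, 14.9 and 14.1 RPKM in the Vehicle libraries and 7.71, 7.98 and 8.63 RPKM in the OMP libraries (log2 fold change -0.78 ± 0.08 SE, limma adjusted p = 0.000135). Pole2 went from 19.1 ± 0.425 to 13.1 ± 1.67 RPKM. Pold1, which holds the catalytic site of polymerase delta, fell from 34.3 ± 2.67 to 22.9 ± 1.53 RPKM, and Pold2 from 48.1 ± 2.34 to 30.5 ± 1.58 RPKM. The other subunits are not among the 32 genes. Pole4, a histone-fold subunit of polymerase epsilon, rose from 27.3 ± 3.72 to 38.7 ± 2.97 RPKM (log2 fold change 0.50 ± 0.10 SE, limma adjusted p = 0.00436), while its partner Pole3 was lower (-0.21 ± 0.06 SE, limma adjusted p = 0.0214). Pold3 fell as well (-0.24 ± 0.06 SE on the log2 scale, limma adjusted p = 0.0133), and Pold4 was at 0.03 ± 0.08 SE (limma adjusted p = 0.769). With median-of-ratios scaling the calls of Pole3 (limma adjusted p = 0.133) and Pold3 (limma adjusted p = 0.0703) were lost, and that of Pole3 was also lost when any library but Vehicle replicate 1 or OMP replicate 3 was left out (limma adjusted p = 0.0534 to 0.0727). All of these but Pole4 were named after their values were seen.

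Of the genes that finish Okazaki fragments, Lig1 (ENSMUSG00000056394, chromosome 7, 13277283 to 13311433), DNA ligase I, had 38.6, 38.2 and 37.2 RPKM in the Vehicle libraries and 26.4, 24.5 and 25.7 RPKM in the OMP libraries. Its libraries were tightly grouped and it fell 1.48-fold (log2 fold change -0.56 ± 0.05 SE, limma adjusted p = 7.66e-05). Fen1 (ENSMUSG00000024742, chromosome 19, 10199132 to 10204169), the flap endonuclease, was listed at 1.35, 0.927 and 0.992 RPKM in the Vehicle libraries and 0.844, 0.356 and 0.680 RPKM in the OMP libraries. These values rest on 31 Vehicle and 16 OMP reads, an OMP to Vehicle ratio of 0.579 after scaling (exact 95% counting interval, 0.296 to 1.09), so no difference could be shown at this depth. Fen1 thus stood at about 1 RPKM in cells with 38.0 ± 0.703 RPKM of Lig1. In the GENCODE M21 annotation 84.2% of the exonic bases of Fen1 also lie in exons of opposite-strand genes, 1909 bases in the antisense gene Gm10143 and 130 in Tmem258. Gm10143 itself was listed at 0.124 RPKM in Vehicle and 0.195 in OMP. Whether reads were counted by strand is not given in the sources used here, and the part of the overlap in the listed level was not tested.

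The 3 RPA genes fell by 1.21- to 2.14-fold. Rpa2 (ENSMUSG00000028884, chromosome 4, 132768332 to 132778752), the middle subunit of the single-stranded DNA-binding complex, had 56.1, 58.2 and 51.7 RPKM in the Vehicle libraries and 26.2, 23.9 and 26.8 RPKM in the OMP libraries and was 2.14-fold lower (log2 fold change -1.09 ± 0.07 SE, limma adjusted p = 7.98e-06). Rpa1 (ENSMUSG00000000751, chromosome 11, 75298166 to 75348324), the large subunit that makes most of the DNA contact, had 38.2, 38.5 and 37.3 RPKM in the Vehicle libraries and 29.4, 32.1 and 32.2 RPKM in the OMP libraries. Rpa1 was only 1.21-fold lower (log2 fold change -0.28 ± 0.05 SE, limma adjusted p = 0.00361). Its 95% interval (-0.40 to -0.16) lay far from that of Rpa2 (-1.24 to -0.95). Rpa3, the small subunit, fell between them, from 74.6 ± 1.65 to 47.6 ± 3.98 RPKM. Of the fork protection genes, Tipin, which partners with Timeless at the fork, fell from 68.8 ± 4.22 to 47.4 ± 1.31 RPKM, and Clspn (claspin), the adaptor of the replication checkpoint, from 14.1 ± 0.760 to 9.13 ± 0.885 RPKM.

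The genes of CAF-1 and of DNA methylation maintenance fell as well, while Slbp did not pass the threshold. Uhrf1 (ENSMUSG00000001228, chromosome 17, 56303321 to 56323486), which recognises half-methylated DNA behind the fork, had 72.5, 73.7 and 74.1 RPKM in the Vehicle libraries and 46.4, 47.3 and 50.3 RPKM in the OMP libraries (log2 fold change -0.61 ± 0.05 SE, limma adjusted p = 2.70e-05). Chaf1a, the large subunit of CAF-1, had 22.1, 25.6 and 22.7 RPKM in the Vehicle libraries and 16.7, 15.8 and 14.2 RPKM in the OMP libraries (limma adjusted p = 0.000824), and Chaf1b, its middle subunit, was 1.35-fold lower, at 32.6 ± 3.74 RPKM in OMP. Slbp (ENSMUSG00000004642, chromosome 5, 33634952 to 33652574) binds the stem-loop of replication-dependent histone mRNAs. It had 41.1, 40.3 and 38.0 RPKM in the Vehicle libraries and 37.2, 34.0 and 36.4 RPKM in the OMP libraries, so the groups came close without overlapping. Its log2 fold change was -0.15 ± 0.06 SE (limma adjusted p = 0.0598, 95% interval -0.28 to -0.02). It passed with TPM rescaling (-0.23, limma adjusted p = 0.0142), and with median-of-ratios scaling its fold change was -0.06 (limma adjusted p = 0.426). The interval of Slbp did not overlap those of Uhrf1 (-0.71 to -0.50) and Chaf1a (-0.77 to -0.39), but it overlapped that of Chaf1b (-0.62 to -0.25).

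Levels between genes depend on the length by which reads were divided. Those lengths equalled the longest annotated transcript for 21 of the 32 genes, such as 3900 bp for Gins2 and 4995 bp for Rfc2. Exons of 13 genes overlap those of another gene, and over 50% of the exonic bases do so in 3, Fen1, Gins2 (67.3%, with Gse1 on the opposite strand) and Chaf1a (52.5%, with Ubxn6). Gse1 had 7.44 RPKM in Vehicle and 8.08 in OMP, and Ubxn6 20.1 and 17.5, and neither was called (limma adjusted p = 0.355 for Gse1 and 0.127 for Ubxn6). The low level of Gins2 relative to Gins1 and Gins4 is therefore uncertain.

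Ratios between subunits of one complex do not depend on the scaling of libraries. For 14 ratios an exact two-sided permutation test over the 6 libraries was run, whose smallest possible p with 3 against 3 is 0.1, so none could pass a threshold of 0.05. In 4 ratios the groups did not overlap (exact permutation p = 0.1, adjusted p = 0.35 over the 14). The ratio of Rpa1 to the mean of the 3 Rpa genes was 0.686, 0.670 and 0.681 in Vehicle and 0.818, 0.958 and 0.919 in OMP, and that of Rpa2 was 1.01, 1.01 and 0.942 in Vehicle and 0.730, 0.713 and 0.765 in OMP. Relative to that mean, OMP libraries thus held more Rpa1 and less Rpa2 mRNA, while the level of each was lower. Both ratios share 1 denominator, which includes Rpa1 and Rpa2, so the deeper fall of Rpa2 also raises the ratio of Rpa1. They are not independent results. Rfc1 relative to the mean of Rfc2 to Rfc5 stood at 1.02, 1.05 and 0.939 in Vehicle and 1.36, 1.09 and 1.14 in OMP, and Pole relative to Pole2 at 0.697, 0.796 and 0.739 in Vehicle and 0.686, 0.590 and 0.595 in OMP. The former ratio was higher and the latter lower in every OMP library. In the other 10 ratios the groups overlapped, among them Chaf1a to Chaf1b (0.531 ± 0.0193 in Vehicle, 0.480 ± 0.0492 in OMP, exact permutation p = 0.2) and Pold1 to Pold2 (0.716 ± 0.0894 and 0.753 ± 0.0470, exact permutation p = 0.7). With 3 libraries a group, these overlaps do not show that the proportions were kept.

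**Figure D3:**
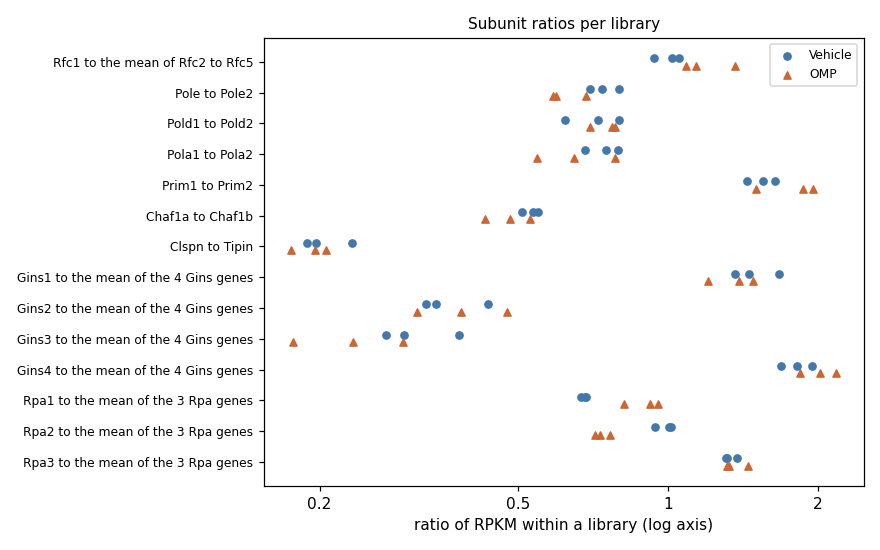
Ratio of RPKM between subunits within each library on a log axis, Vehicle as circles and OMP as triangles. The groups are apart for Rfc1, for Pole to Pole2, for Rpa1 and for Rpa2, and overlap in the other 10 ratios.

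Other genes of the replication pathway mostly fell with the 32, where 27.5% of all genes tested fell and 15.4% rose. Of 15 licensing and origin recognition genes 12 fell and 0 rose, with a median log2 fold change of -0.40. The values ran from Cdt1 (-1.10 ± 0.05 SE), the loader of the MCM ring, to Orc4 (0.11 ± 0.10 SE, limma adjusted p = 0.371). Of 10 origin firing genes 9 fell, and their median of -0.65 was the lowest of the neighbouring lists. Ticrr, the vertebrate Sld3 counterpart that brings Cdc45 to origins, went from 9.05 ± 0.312 to 4.08 ± 0.411 RPKM. Recql4, the only firing gene not called with the values as deposited, was at 0.02 ± 0.07 SE on the log2 scale (limma adjusted p = 0.803). Donson (limma adjusted p = 0.0322), named after its value was seen, lost its call with median-of-ratios scaling, quantile normalization, the replicate block and no filter on low values. It also did without replicate 1 or 3 of either group. In each of these runs 8 firing genes fell, where 12.8% to 25.8% of all genes tested fell. Of 16 other fork and Okazaki fragment genes 11 fell and 1, Pole4, rose, with Timeless lowest (22.7 ± 0.669 to 10.00 ± 0.621 RPKM). Of 8 genes for the alternative clamp loaders and the checkpoint clamp 6 fell. With median-of-ratios scaling 4 of these 8 fell, and of the 16 fork and Okazaki fragment genes 8 fell and 2 rose. Under that scaling 2238 of all 11005 genes tested fell and 2368 rose. Chtf18, which replaces Rfc1 in a loader tied to sister chromatid cohesion, went from 9.66 ± 1.10 to 3.86 ± 0.942 RPKM, and Rad1 of the checkpoint clamp was at 0.09 ± 0.09 SE on the log2 scale (limma adjusted p = 0.428).

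Neighbouring lists covered both routes of chromatin assembly, and are read beside the 27.5% of all genes tested that fell and the 15.4% that rose. Of 13 other genes of replication-coupled assembly 11 fell and 1 rose, with a median of -0.43. With median-of-ratios scaling 9 of them fell, and 10 fell with quantile normalization or when any library but OMP replicate 1 was left out. In these runs 20.3% to 25.6% of all genes tested fell. Asf1b, a histone chaperone of proliferating cells, had the lowest value (61.4 ± 2.47 to 27.6 ± 1.13 RPKM), and Nap1l4, another histone chaperone, was higher (0.14 ± 0.04 SE, limma adjusted p = 0.0121), a call lost with TPM rescaling (limma adjusted p = 0.195). Of 9 tested genes of replication-independent histone deposition 1 fell, Dek (-0.27 ± 0.06 SE), and 1 rose, Atrx (0.25 ± 0.08 SE), with a median of 0.11 against -0.09 over all genes tested. That median was 0.05 without Vehicle replicate 1, 0.03 without Vehicle replicate 2, 0.06 without OMP replicate 1, 0.02 with TPM rescaling, 0.20 with median-of-ratios scaling and 0.21 with quantile normalization. The Atrx call was lost when any library but OMP replicate 2 was left out (limma adjusted p = 0.0559 to 0.0936), with TPM rescaling (limma adjusted p = 0.146) and without a filter on low values (limma adjusted p = 0.0628), and that of Dek with median-of-ratios scaling (limma adjusted p = 0.0608). With median-of-ratios scaling 0 of the 9 fell and 2 rose, where 2238 of all 11005 genes tested fell and 2368 rose. With TPM rescaling 10 genes of the list were tested, of which 2 fell and 0 rose. Of all 12513 genes tested under TPM rescaling 3922 fell and 1223 rose. Hira, the core chaperone of that route, stood at 7.09 ± 0.774 RPKM without OMP and 7.80 ± 1.34 RPKM with it (limma adjusted p = 0.496, named after its value was seen). Whether the 2 kinds of assembly genes differed was not tested as a set.

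**Figure D4:**
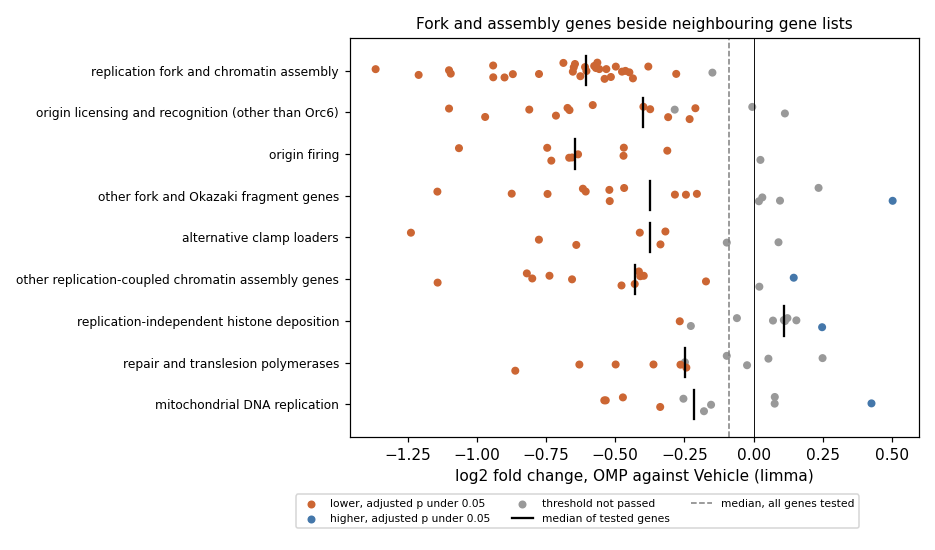
Log2 fold change, OMP against Vehicle, of each tested gene in the group and in 8 neighbouring lists, with the median of each as a black bar and the median of all genes tested as a dashed line. The fork and assembly genes lie left of 0 throughout, and the genes of replication-independent histone deposition lie around 0 with a median of 0.11, which was 0.03 without Vehicle replicate 2.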

How the data were processed

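Poly(A)-selected RNA of 3 Vehicle and 3 OMP libraries was sequenced. The authors deposited RPKM values, 1 column per library, matched to libraries by title. Tools in the submitters' processing notes are STAR 2.5.3a, featureCounts 1.6.3, Trimmomatic 0.36 and FastQC 0.11.5, with mm10 (GRCm38). For the annotation release and strandedness, the settings were not given in the sources used here. Values of all 19970 genes above 0 were whole reads within a relative tolerance of 1e-06, given 1 length per gene and 1 total per library. These reads cover counting error only, since they carry no molecular identifiers.

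Genes with at least 1 RPKM in at least 3 libraries were fitted on log2(RPKM + 0.5) with limma 3.58.1 in R 4.3.3 without covariates. The moderated test with a mean-dependent prior was two-sided and adjusted by Benjamini-Hochberg over all genes. Values are mean ± SD (n = 3). The procedure was tested on simulated data. Gene positions are from GENCODE M21 and promoters from RefSeq, both on GRCm38. All 32 genes were named, with the highest and lowest gene of each neighbouring list and any called against its list, and others are marked. The genes and lists were chosen with earlier results of these data known. Alternatives were other pseudocounts, filters and scalings, limma-voom on recovered reads, the replicate block and leaving out each library. Protein sequences were not analysed here, and some single marker genes are not reported here.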

Additional observations from a re-analysis of the deposited data

How the results depend on the processing

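Under every alternative run, 29 to 31 of the fork and assembly genes fell and 0 rose, while 12.8% to 33.3% of all genes tested fell. Over all alternatives 3952 to 5336 genes were called (4735 with the values as reported), the lowest without Vehicle replicate 3 and the highest with limma-voom on recovered reads. Rfc3 lost its call without a filter on low values (limma adjusted p = 0.0614), with quantile normalization and without Vehicle replicate 2 or 3. Slbp gained one with TPM rescaling and, at an adjusted p of 0.05, with a filter at 5 RPKM, under which all 31 tested genes fell. The cause was not tested. Of the values of the 31 tested genes under the alternatives, 4 lost a call, 2 gained one, 0 reversed and 459 did neither. In the neighbouring lists 73 lost a call, 23 gained one, 0 reversed and 1278 did neither. No pairing by replicate number was seen. The deviations from the group means had correlations of -0.0024, 0.015 and 0.0069 in the numbered pairs, and no OMP library had its highest correlation with the Vehicle library of its number. Such values cannot show whether equal numbers mark a shared culture or batch. A fit with the replicate block called 4445 genes, 2847 of them lower, and 30 of the fork and assembly genes fell. Under it Atrx lost its call (limma adjusted p = 0.0568) and Lig3 gained one (limma adjusted p = 0.0411). Leaving out 1 library gave 3952 to 4207 called genes and 29 to 30 falls in the group. The 7-letter form of the promoter letters gave 16 genes in place of 8. Depth limits Fen1, which was not tested with the main filter.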

Other observations

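Genes of repair and translesion synthesis and of mitochondrial DNA replication were tested in the same fit. Of 11 tested genes of repair and translesion synthesis 6 fell and 0 rose, where 27.5% of all genes tested fell. Their median log2 fold change was -0.25, with values from Polm (-0.86 ± 0.23 SE), an end-joining polymerase, to Polb (0.25 ± 0.10 SE, limma adjusted p = 0.0687), the base excision repair polymerase. The Polm call was lost without Vehicle replicate 2 or 3 (limma adjusted p = 0.0538 and 0.0504), and Polb passed with median-of-ratios scaling (limma adjusted p = 0.0236), with quantile normalization (0.0235) and without Vehicle replicate 2 (0.0422). With median-of-ratios scaling 3 of this list fell, 1 rose and the median was -0.16, and with quantile normalization 4 fell, 1 rose and the median was -0.15. Under these scalings, in that order, 20.3% and 21.1% of all genes tested fell, and 2368 of 11005 and 2244 of 11020 rose. Only 3 of the 11 fell when Vehicle replicate 1, Vehicle replicate 3 or OMP replicate 1 was left out. Of all genes tested 23.3%, 23.2% and 25.1% fell in these runs, so the list lay near the share of all genes there. Of 10 genes of mitochondrial DNA replication 4 fell and 1 rose, where 43% of all genes tested were called, with a median of -0.22 that moved to -0.11 without OMP replicate 1, -0.13 with median-of-ratios scaling and -0.10 with quantile normalization. Mgme1, a mitochondrial exonuclease, was lowest (16.5 ± 1.18 to 11.2 ± 0.968 RPKM), and Polrmt, the mitochondrial RNA polymerase that also primes replication there, rose from 9.38 ± 0.483 to 12.8 ± 0.877 RPKM (limma adjusted p = 0.00359). Lig3, the ligase of mitochondrial DNA and of base repair, named after its value was seen, was at 0.23 ± 0.08 SE on the log2 scale (limma adjusted p = 0.0526). Lig3 was counted above among the other fork and Okazaki fragment genes. It passed as higher with median-of-ratios scaling (limma adjusted p = 0.0137), quantile normalization (0.0123), limma-voom (0.00615) and a filter at 5 RPKM (0.0447), and without OMP replicate 1 (0.0322).

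Over all genes tested that had a promoter window, 41.3% of the 412 with the 8-letter E2F-like letters fell, against 28.6% of the 7754 without them, and the median log2 fold changes were -0.19 and -0.08. The share that fell was also higher with each of the other letters, at 33.1% with and 28.3% without the 7-letter form, 35.6% and 28.2% for TTTGAA, and 32.7% and 26.6% for CCAAT. The fork and assembly genes are among these counts.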
